A study of Rattus norvegicus with 24 samples.

Results

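The route from vasopressin to chloride secretion was followed through 10 genes in the kidneys of PKD/Mhm (Cy/+) rats, a model of cystic kidney disease. They were chosen by name and matched to the rat Entrez identifiers, and all 10 of 10 were present among the 17334 genes of the files and among the 12778 genes tested. The members are Avpr2, Adcy3, Adcy6, Prkaca, Prkacb, Pde1a, Pde4d, Cftr, Slc12a2 and Ano1. RNA was sequenced from the left kidney of 24 male animals aged 8 months, with 6 animals in each of 4 groups. The study describes all animals, the controls included, as heterozygous for the Cy allele (a missense change in Anks6). It told them from non-cystic animals by abdominal palpation, and the genotype of single animals was not checked here. The Ctrl group was untreated. Animals of the CoCM group received conditioned medium each month for 6 months, taken from human skin ABCB5+ stromal cells grown together with THP-1-derived macrophages under IFN-γ and LPS. The sources used here disagree on whether that medium was given by vein or into the abdomen. The ipABCB5 and ivABCB5 groups received the human ABCB5+ cells themselves over the same period, into the peritoneum (i.p.) or by vein (i.v.). No group of kidneys without the Cy allele was analysed here, so no level below can be read against a group without cysts. Control animals were numbered from 1 to 24 and treated animals from 26 to 43, and the labels name no batch, so that the order of handling and the treatment cannot be told apart.

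Vasopressin acts on collecting duct and distal tubule cells through the V2 receptor, which couples to a stimulatory G protein and adenylyl cyclase. The cyclic AMP that is made releases the catalytic subunits of protein kinase A (PKA), and phosphodiesterases break the messenger down again. In cystic epithelium, PKA opens the apical chloride channel CFTR while the cotransporter NKCC1 loads chloride from the blood side, and sodium and water follow chloride into the cyst. This route is known as a driver of cyst growth and is the target of V2 receptor blockers in polycystic kidney disease.

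Levels are given in TPM (an abundance scaled to transcript length and library total), the unit in which genes can be compared with each other. Fold changes are log2 values with their standard error (SE), from edgeR's quasi-likelihood test on the estimated counts of all 24 animals, and adjusted p-values are Benjamini-Hochberg values over all 12778 genes. Libraries held between 9304630 and 14125457 estimated counts. In animals 36 and 37 of the i.v. group, 38 of the i.p. group and 39 of the CoCM group, markers of injured tubule summed to 383 to 666 TPM, against 6430 to 13900 TPM in the other 20 animals. The same 4 animals had positions of 80.8 to 97.4 on the first principal component of all genes, which held 56.3% of the variance, and the other 20 lay between -53.0 and 11.5. Fibroblast markers summed to 34.6 to 163 TPM in the 4 animals and 282 to 1220 TPM in the others, and macrophage markers to 12.6 to 35.6 against 92.9 to 222 TPM. No control animal was among the 4, and for many but not all of the values below the fold change without the 4 is given as well.

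Prkaca, Prkacb and Pde4d, 2 PKA subunits and a phosphodiesterase that is regulated by PKA, were the 3 members with a core of the cAMP response element near a transcription start in the RefSeq promoter table of assembly GRCr8, and the windows that hold it are shown for that reason. Each window runs from 250 bases before to 50 bases after an annotated start, 5′ to 3′ on the gene's strand, and capitals mark the core, TGACG, or its reverse complement CGTCA. The windows lie at chr19:41083140-41083439 on the minus strand for Prkaca, at chr2:238386266-238386565 on the minus strand for Prkacb, and at chr2:42592499-42592798 and chr2:42767367-42767666 on the plus strand for Pde4d, which has 5 windows in the table.
Prkaca: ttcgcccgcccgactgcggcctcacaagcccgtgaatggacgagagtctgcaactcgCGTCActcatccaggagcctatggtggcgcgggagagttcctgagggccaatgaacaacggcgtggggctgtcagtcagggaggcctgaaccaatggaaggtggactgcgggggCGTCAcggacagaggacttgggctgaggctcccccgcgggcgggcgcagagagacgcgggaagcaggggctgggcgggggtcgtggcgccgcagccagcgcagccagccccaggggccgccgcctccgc
Prkacb: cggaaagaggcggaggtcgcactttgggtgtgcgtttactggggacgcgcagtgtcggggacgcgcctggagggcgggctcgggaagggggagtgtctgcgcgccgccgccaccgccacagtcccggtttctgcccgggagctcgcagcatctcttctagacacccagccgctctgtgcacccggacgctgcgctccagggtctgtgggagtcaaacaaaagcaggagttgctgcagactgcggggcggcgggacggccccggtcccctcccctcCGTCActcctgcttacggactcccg
Pde4d, first window: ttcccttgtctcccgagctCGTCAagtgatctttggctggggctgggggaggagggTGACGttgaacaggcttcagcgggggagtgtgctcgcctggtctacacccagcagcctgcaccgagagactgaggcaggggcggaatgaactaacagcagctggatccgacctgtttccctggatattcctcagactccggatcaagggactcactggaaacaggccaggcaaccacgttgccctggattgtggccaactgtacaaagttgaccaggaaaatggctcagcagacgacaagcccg
Pde4d, second window: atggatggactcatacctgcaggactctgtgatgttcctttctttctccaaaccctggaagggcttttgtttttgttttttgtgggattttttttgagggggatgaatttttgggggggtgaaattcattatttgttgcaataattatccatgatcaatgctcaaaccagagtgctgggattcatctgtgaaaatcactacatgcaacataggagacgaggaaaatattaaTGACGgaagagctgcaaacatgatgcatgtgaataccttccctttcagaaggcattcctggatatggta

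The cores of Prkaca began 193 and 79 bases before its start, and that of Prkacb 25 bases after its start. In Pde4d they began 231 and 194 bases before the start of the first window shown and 19 bases before that of the second. The table gave a window for 8 of the 10 members, and 4 of their 12 windows held a core, against 21.2% of the 33469 windows of all genes. None of the 12 held the full element TGACGTCA, which was in 1.83% of all windows and contains the core on both strands. These letters are a description of the sequence only. Adcy3 and Adcy6 have no entry.

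In the Ctrl kidneys the most abundant member was Prkaca, with a mean of 74.5 ± 5.78 TPM (SD, n = 6). Avpr2 followed at 51.2 ± 16.3, Adcy6 at 48.9 ± 18.1 and Prkacb at 33.5 ± 8.34 TPM. Lower levels were found for Pde1a (14 ± 4.31 TPM), Slc12a2 (10.3 ± 1.67 TPM), Ano1 (6.36 ± 1.07 TPM), Adcy3 (5.83 ± 0.906 TPM) and Pde4d (5.73 ± 2.29 TPM). Cftr was the lowest by far, with 0.395 ± 0.155 TPM from 18 to 41 estimated counts per control library. Neighbours in this order had separate ranges over the 6 controls only between Prkacb and Pde1a, between Slc12a2 and Ano1, and between Pde4d and Cftr. Avpr2 and Adcy6 could not be ordered in this way, nor could Ano1, Adcy3 and Pde4d. Across all 24 animals, Adcy3 was above Pde4d in only 10.

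**Figure D1:**
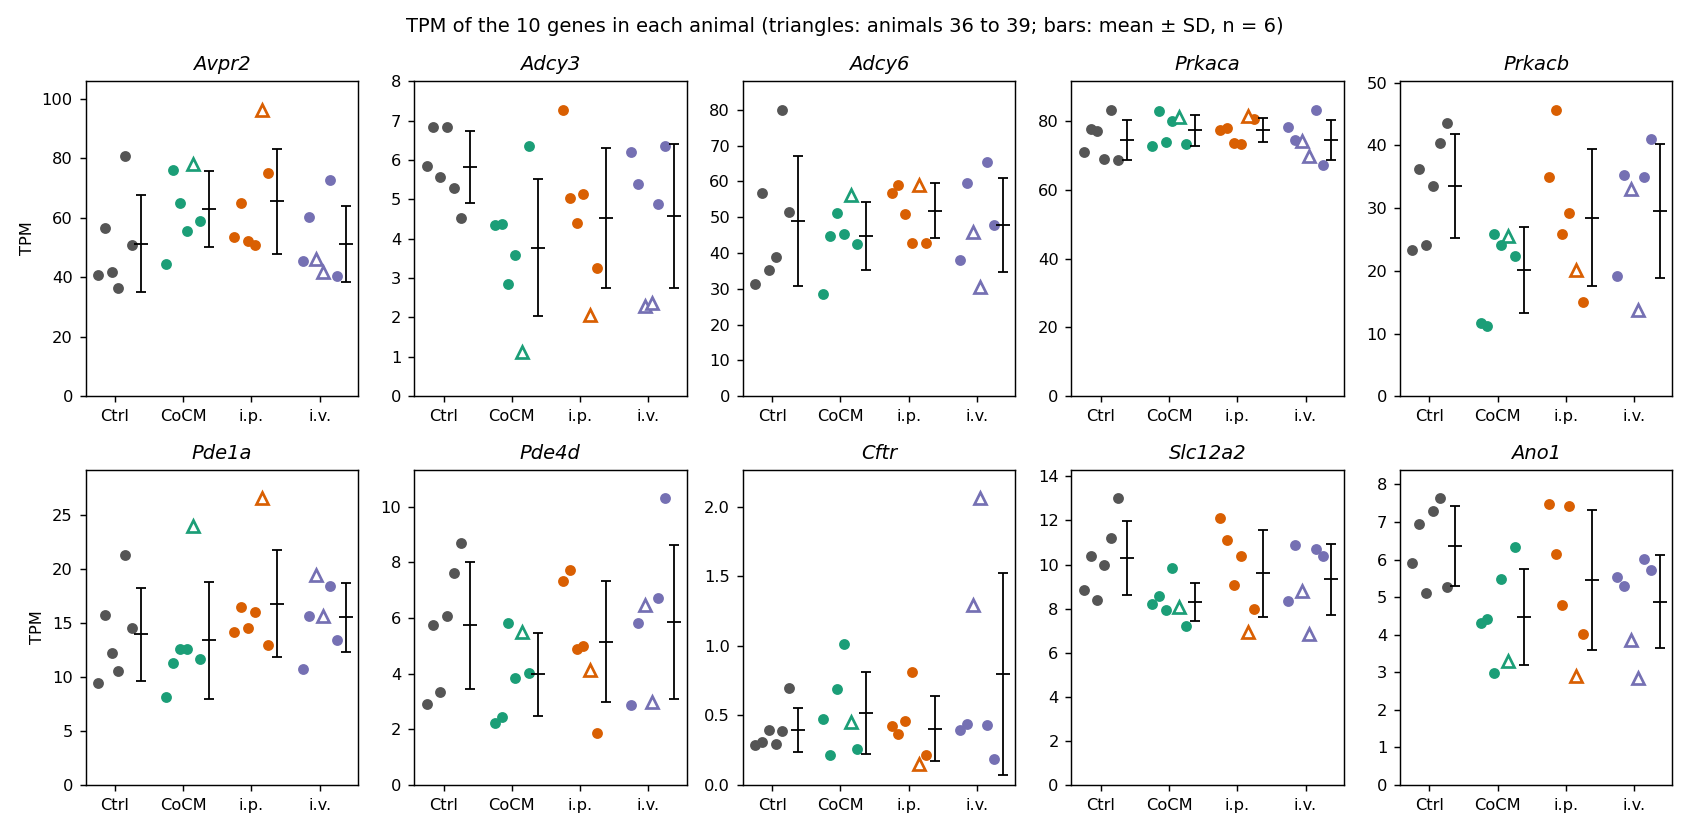
TPM (y axis, from 0) of the 10 genes in each of the 24 animals by group (x axis), with the mean ± SD of 6 animals as bars and animals 36 to 39 as open triangles. The 4 triangles hold the 4 lowest Adcy3 values (1.13 to 2.37 TPM), and both high Cftr values of the i.v. group (1.29 and 2.06 TPM) are triangles.

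No member differed between groups after adjustment over all genes, in any of the 4 pairwise comparisons or in the test over the 4 groups. For CoCM against Ctrl, edgeR called 1 gene of 12778 (0.00783%), and that gene, Ovca2, was no member. For i.p. against Ctrl, i.v. against Ctrl, i.p. against i.v. and the 4 groups it called 0 genes (0%), with 1.77%, 5.78%, 2.14% and 4.71% of genes at an unadjusted p under 0.05. DESeq2 called 81 genes for CoCM and voom with sample quality weights called 179, again without a member. The smallest adjusted p of a member under any alternative was 0.0848. The ranges of the groups overlapped, in TPM and in log2 CPM, for each of the 40 pairs of a member and a comparison, while 1.38%, 0.047%, 0.11% and 0.0626% of all genes had separate groups on log2 CPM in the 4 comparisons.

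At an unadjusted p under 0.05, 4 of the 10 members differed between CoCM and Ctrl, where 11.9% of all genes did (5.96% in each direction). Lower values in CoCM were fitted for Prkacb, Ano1 and Slc12a2, and a higher one for Avpr2. That count rests on single animals, since it was 1 without CoCM animal 27 or 34 and 2 without CoCM animal 39 or control 1, 22 or 24, and it was 3 without animals 36 to 39 together, where 16.9% of all genes passed. Avpr2 was the 1 member past the same p in i.p., on the higher side, where 1.26% of all genes were higher and 0.509% lower. Cftr was the 1 member in i.v., again higher (4.44% of genes higher, 1.34% lower), and the 1 member between i.p. and i.v., lower in i.p. (0.689% higher, 1.46% lower). The 3 treated groups share the 6 control animals, so their comparisons are not independent of each other. The exact permutation p-values below are two-sided, unadjusted and computed on log2 CPM (counts scaled to the library total after TMM scaling) over the 924 splits of 12 animals, and the smallest value they can give is 0.00216.

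**Figure D2:**
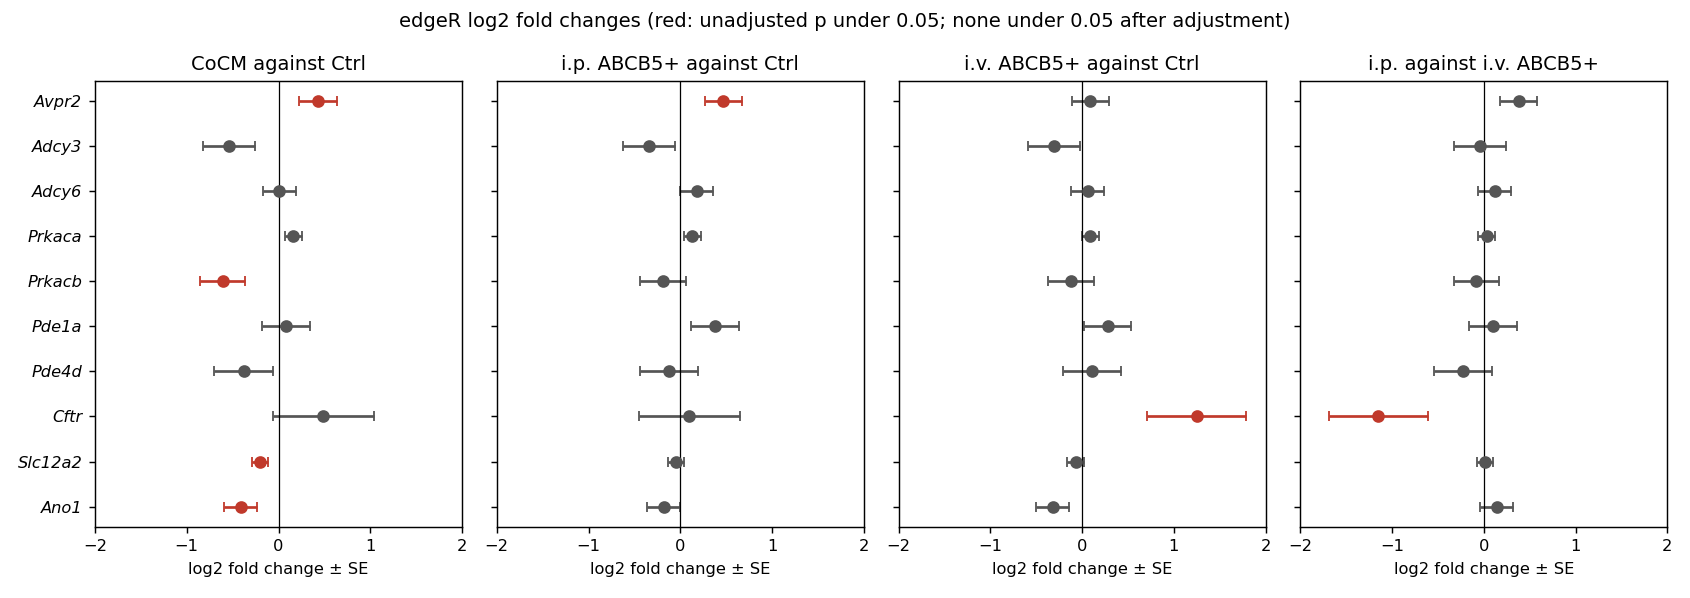
Log2 fold changes (x axis, edgeR, bars ± SE) of the 10 genes (y axis) in the 4 comparisons, with red for an unadjusted p under 0.05. There are 4 red points in CoCM and 1 in each of the other 3 panels, while no gene had an adjusted p under 0.05.

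Avpr2 encodes the V2 receptor, the entry point of the route. Its level ran from 36.5 through a median of 46.2 to 80.9 TPM in Ctrl, and from 44.4 through 61.9 to 78.2 TPM in CoCM. In the i.p. group it ran from 50.8 through 59.2 to 96.3 TPM, and in the i.v. group from 40.5 through 45.7 to 72.7 TPM. Above the Ctrl mean were 5 of 6 CoCM animals and 5 of 6 i.p. animals, but control animal 23 was the highest of all groups except i.p. animal 38. The log2 fold change was 0.43 ± 0.204 in CoCM (edgeR unadjusted p = 0.0449, adjusted p = 0.411, exact permutation p = 0.0433). In i.p. it was 0.47 ± 0.204 (edgeR unadjusted p = 0.0312, adjusted p = 0.978, exact permutation p = 0.11), and in i.v. 0.09 ± 0.204 (edgeR adjusted p = 0.878). Without animals 36 to 39 the values for CoCM and i.p. were 0.32 and 0.26 (edgeR adjusted p = 0.341 and adjusted p = 1).

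Principal cells of the collecting duct are the main cells that answer to vasopressin, and their markers were set beside Avpr2. All 7 of 7 markers in that list were detected, and their summed level had a median of 1280 TPM in Ctrl (1090 to 2670). The medians were 1730 TPM after CoCM (1170 to 2360), 1810 TPM after i.p. cells (1320 to 3040) and 1470 TPM after i.v. cells (1070 to 1970). All 7 had a log2 fold change above 0 in CoCM (median 0.32) and in i.p. (median 0.38), and 5 of 7 did in i.v. (median 0.05), with 1, 1 and 0 of them at an unadjusted p under 0.05. Intercalated cell and thick ascending limb markers stood higher as well, while proximal tubule markers did not. Intercalated cell markers were above 0 in 6 of 6 (median 0.45 in CoCM and 0.49 in i.p.). Thick ascending limb markers were above 0 in 5 of 6 in CoCM (median 0.33) and 6 of 6 in i.p. (median 0.61). Of the proximal tubule markers, 3 of 6 were above 0 in CoCM (median -0.03) and in i.p. (median -0.01). Animal 39 held the highest intercalated and thick ascending limb sums of CoCM (1400 and 4820 TPM). Animal 38 held those of i.p. (1590 and 5190 TPM). The medians include both animals, and medians without them are not given here. In bulk RNA, more cells of a type and more RNA per cell cannot be told apart, and the part of any of these cells in the Avpr2 values was not tested. Scnn1a, the alpha subunit of the epithelial sodium channel of principal cells, was among the 3 genes most like Avpr2 between animals (r = 0.94, rho = 0.87, over 20 animals on log2 CPM centred on the group means). Tmem38a (r = 0.94) and Tmem30b (r = 0.93) were the other two.

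Adcy6 and Adcy3 encode adenylyl cyclases, the enzymes that make cAMP. Adcy6, an isoform inhibited by calcium, was the major one of the pair. Its level ran from 31.2 through a median of 45.2 to 80.0 TPM in Ctrl, from 28.5 through 45.0 to 56.1 in CoCM, from 42.7 through 53.8 to 59.1 in i.p. and from 30.5 through 46.9 to 65.4 TPM in i.v. These ranges covered each other almost wholly. The log2 fold change was 0.01 ± 0.178 in CoCM, 0.18 ± 0.178 after i.p. cells and 0.06 ± 0.178 after i.v. cells, and on log2(TPM + 1) the first and the last turned to -0.08 and -0.0022. Without animals 36 to 39 the values were -0.11, 0.08 and 0.09 in that order.

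Adcy3 lay between 4.54 and 6.85 TPM in Ctrl (median 5.72) and between 1.13 and 6.35 TPM in CoCM (median 3.96). Below the lowest control were 5 of 6 CoCM animals, and animal 40 was inside the control range. In i.p. the level ran from 2.06 through 4.72 to 7.28 TPM and in i.v. from 2.29 through 5.14 to 6.36 TPM. In CoCM the log2 fold change was -0.54 ± 0.285 (edgeR unadjusted p = 0.0721, adjusted p = 0.446, exact permutation p = 0.0563), and those in i.p. and i.v. were -0.34 ± 0.284 and -0.31 ± 0.283. In TPM the gene set animals 36 to 39 apart within their groups. Their levels of 1.13 to 2.37 TPM lay wholly below the 2.85 to 7.28 TPM of the other 20 animals. On log2 CPM the sets overlapped, with 3.41 in i.v. animal 37 and 3.38 in CoCM animal 34. Without animals 36 to 39, the log2 fold change was -0.37 in CoCM (edgeR adjusted p = 0.318), -0.22 in i.p. and -0.06 in i.v. Adcy3 made up 11.6 ± 3.88% of the summed Adcy3 and Adcy6 level in Ctrl. That share was 8.28 ± 4.39% in CoCM, 8.07 ± 2.87% after i.p. cells and 8.83 ± 3.43% after i.v. cells. In the reference table the span of Adcy3 overlaps Dnajc27, which had a median of 6.50 TPM. Whether strand was used in the quantification is not given in the sources used here, so the pair may share reads.

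Prkaca and Prkacb encode the catalytic subunits alpha and beta of PKA. Prkaca was the steadiest member, with a coefficient of variation of 6.38% over the 24 animals and a full range of 67.2 to 83.3 TPM. Ctrl and CoCM almost coincided, with levels from 68.8 through a median of 74.1 to 83.3 TPM in Ctrl and from 72.7 through 76.9 to 83.0 TPM in CoCM. I.p. animals lay between 73.4 and 81.4 TPM (median 77.6) and i.v. animals between 67.2 and 83.3 TPM (median 74.4). On the count scale the log2 fold change in CoCM was 0.16 ± 0.0917 (edgeR unadjusted p = 0.0891, adjusted p = 0.459), with an exact permutation p = 0.0238. It was 0.05 on log2(TPM + 1), a scale on which the median of all genes stood at -0.1 in CoCM, and 0.11 without animals 36 to 39.

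Prkacb varied much more, with a coefficient of variation of 35.9%. Its level ran from 23.3 through a median of 34.9 to 43.5 TPM in Ctrl and from 11.2 through 23.2 to 25.9 TPM in CoCM. All 6 CoCM animals were below the Ctrl mean and 3 were below every control, of which animals 26 and 27 were the lowest at 11.7 and 11.2 TPM. In i.p. the level ran from 15.1 through 27.5 to 45.7 TPM and in i.v. from 13.7 through 34 to 41.1 TPM, and both groups had animals below every control. The log2 fold change in CoCM was -0.61 ± 0.25 (edgeR unadjusted p = 0.0232, adjusted p = 0.377, exact permutation p = 0.0195), against -0.19 ± 0.248 in i.p. and -0.12 ± 0.248 in i.v. It stayed between -0.72 and -0.5 when each of the 24 animals was left out in turn, and was -0.74 without animals 36 to 39 (edgeR adjusted p = 0.221). The values of i.p. and i.v. were then -0.14 and -0.07. Prkacb made up 30.7 ± 5.61% of the summed Prkaca and Prkacb level in Ctrl, with a range of 23.8% to 38.7%. The share was 20.4 ± 5.9% in CoCM (range 11.9% to 26%), 26.4 ± 7.67% in i.p. and 27.7 ± 8.14% in i.v.

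Phosphodiesterases end the cAMP signal. Pde1a, the calcium and calmodulin dependent isoform, ran from 9.41 through a median of 13.4 to 21.3 TPM in Ctrl and from 8.16 through 12.1 to 23.9 TPM in CoCM. I.p. animals ran from 12.9 through 15.3 to 26.5 TPM and i.v. animals from 10.7 through 15.6 to 19.4 TPM. The highest value of CoCM belonged to animal 39 and that of i.p. to animal 38, and the remaining 5 animals of each group stayed between 8.16 and 12.6 TPM and between 12.9 and 16.5 TPM. Against Ctrl the log2 fold change was 0.08 ± 0.258 in CoCM, 0.38 ± 0.258 after i.p. cells and 0.28 ± 0.258 after i.v. cells, of which the first turned to -0.08 on log2(TPM + 1). Without animals 36 to 39 the values were -0.22 in CoCM, 0.13 after i.p. cells and 0.03 after i.v. cells.

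Pde4d, a cAMP-specific isoform that is regulated by PKA, ran from 2.92 through a median of 5.91 to 8.70 TPM in Ctrl and from 2.23 through 3.94 to 5.81 TPM in CoCM. In i.p. it ran from 1.86 through 4.93 to 7.74 TPM and in i.v. from 2.89 through 6.14 to 10.3 TPM. Below all controls were 2 CoCM animals, and the other ranges overlapped broadly. The log2 fold changes of -0.38 ± 0.318 in CoCM (edgeR adjusted p = 0.581), -0.12 ± 0.316 in i.p. and 0.11 ± 0.315 in i.v. were small beside a coefficient of variation of 42.5%, and the last turned to -0.001 on log2(TPM + 0.1). Without animals 36 to 39 they were -0.55, -0.09 and 0.16.

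Cftr, the apical chloride channel opened by PKA, was detected in every library, but with only 7 to 136 estimated counts. It ran from 0.287 through a median of 0.351 to 0.696 TPM in Ctrl, from 0.212 through 0.462 to 1.01 in CoCM and from 0.150 through 0.397 to 0.813 TPM in i.p. In i.v. the range was 0.185 to 2.06 TPM around a median of 0.432. The i.v. values split into 1.29 and 2.06 TPM in animals 36 and 37 and 0.185 to 0.437 TPM in the other 4, which lay near the controls. The log2 fold change of i.v. against Ctrl was 1.25 ± 0.541 (edgeR unadjusted p = 0.0306, adjusted p = 0.673), while the exact permutation p was 0.316. It was 1.06 without animal 36, 0.54 without animal 37 and -0.17 without animals 36 to 39 (edgeR adjusted p = 1). The i.p. and i.v. groups differed by -1.15 ± 0.541 (edgeR unadjusted p = 0.0454, adjusted p = 1, exact permutation p = 0.307), which turned to 0.41 without those animals. CoCM and i.p. gave 0.49 ± 0.546 and 0.1 ± 0.549, and the latter turned to -0.05 on log2(TPM + 0.1) and was 0.25 without animals 36 to 39. The SE of these values covers counting error and the spread between animals together, and the parts of the 2 were not separated.

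Slc12a2 encodes NKCC1, the sodium, potassium and chloride cotransporter that loads the cell with chloride. It ran from 8.37 through a median of 10.2 to 13 TPM in Ctrl and from 7.19 through 8.15 to 9.84 TPM in CoCM. All 6 CoCM animals were below the Ctrl mean and 4 were below every control. I.p. and i.v. animals, with 6.96 to 12.1 TPM (median 9.72) and 6.86 to 10.9 TPM (median 9.57), overlapped the controls, with 2 animals of each group below every control. For CoCM a log2 fold change of -0.2 ± 0.0889 was fitted (edgeR unadjusted p = 0.0343, adjusted p = 0.396, exact permutation p = 0.0476), and -0.23 without animals 36 to 39 (edgeR adjusted p = 0.259). Those of i.p. and i.v. were -0.05 ± 0.0888 and -0.07 ± 0.0888.

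Ano1 encodes a chloride channel that is opened by calcium. It ran from 5.11 through a median of 6.43 to 7.63 TPM in Ctrl and from 2.99 through 4.36 to 6.33 TPM in CoCM. In i.p. it ran from 2.91 through 5.46 to 7.49 TPM and in i.v. from 2.86 through 5.41 to 6.01 TPM. All 6 CoCM and all 6 i.v. animals were below the Ctrl mean, and 4 and 2 of them were below every control. For CoCM the fitted log2 change was -0.41 ± 0.179 (edgeR unadjusted p = 0.0334, adjusted p = 0.395, exact permutation p = 0.0346), and -0.36 without animals 36 to 39 (edgeR adjusted p = 0.287). In i.v. it was -0.32 ± 0.179 (edgeR unadjusted p = 0.0855, adjusted p = 0.673, exact permutation p = 0.026), and in i.p. -0.18 ± 0.178. The 2 i.v. animals below every control were 36 and 37, and without animals 36 to 39 the values were -0.2 in i.v. and -0.07 in i.p. (edgeR adjusted p = 1 for both).

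Of the 10 genes, Adcy3, Ano1 and Pde1a were those whose levels stood furthest to one side in animals 36 to 39. Ano1 was at 2.86 to 3.86 TPM in the 4 animals and at 2.99 to 7.63 TPM in the other 20. Pde1a ran the other way, with 15.6 to 26.5 against 8.16 to 21.3 TPM. On log2 CPM Pde1a was at 4.88 to 5.54 in the 4 animals and at 4.77 or below in the other 20. Slc12a2 (6.86 to 8.80 against 7.19 to 13 TPM) and Prkaca (69.9 to 81.4 against 67.2 to 83.3 TPM) overlapped more. Thick ascending limb markers summed to 4640 to 5680 TPM in the 4 animals against 1060 to 4940, and proximal tubule markers to 2730 to 4050 against 627 to 2800 TPM. The part of these cell types in the values of the 3 genes was not tested. These animals were named from their position on the first component, so the values are a description.

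**Figure D3:**
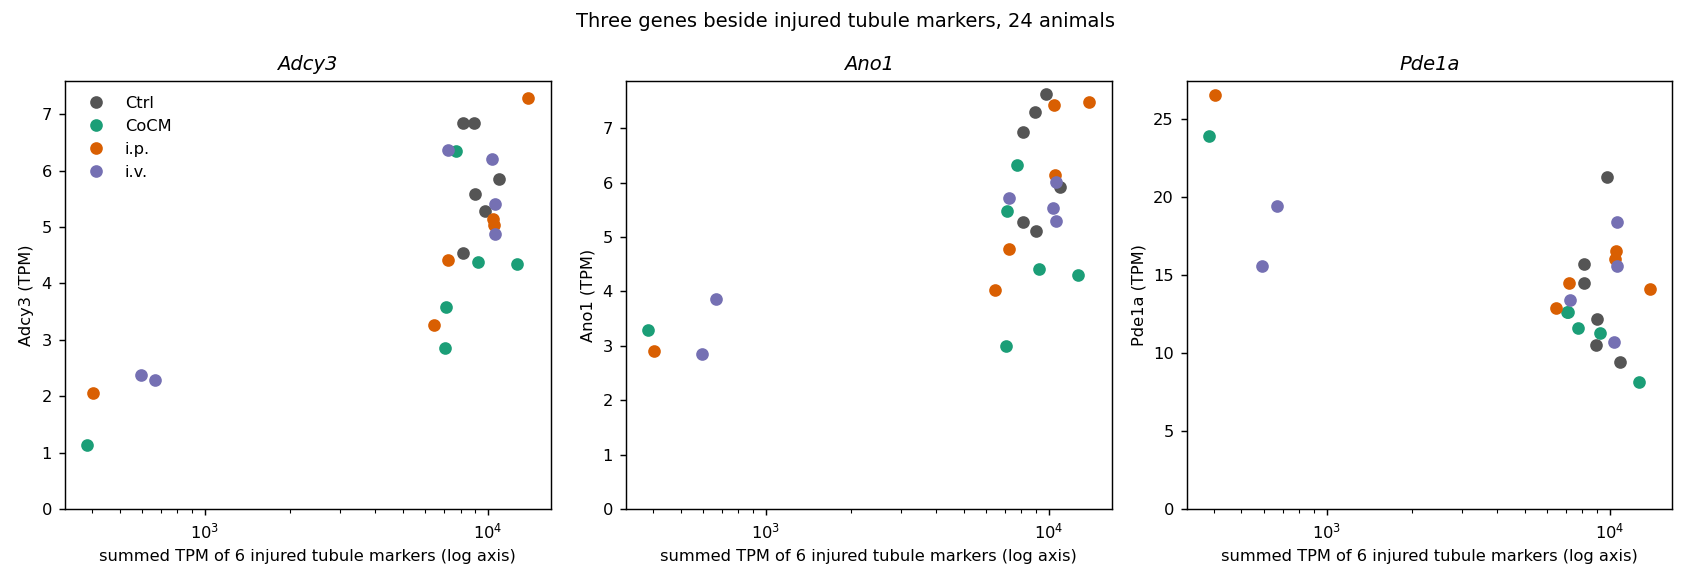
TPM of Adcy3, Ano1 and Pde1a (y axes) against the summed TPM of 6 injured tubule markers (x axis, log scale) in 24 animals, coloured by group. The 4 points on the left (383 to 666 TPM of markers) are animals 36 to 39, with the lowest Adcy3 and with Pde1a from 15.6 to 26.5 TPM.

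Markers of 3 other cell types stood lower in CoCM without passing the adjusted threshold, beside the lower Prkacb, Ano1 and Slc12a2 values of that group. Endothelial markers summed to 132 to 286 TPM against 252 to 308 TPM in Ctrl, with a median log2 fold change of -0.44 and 3 of 5 genes at an unadjusted p under 0.05 (11.9% of all genes). Fibroblast markers had a median of -0.73 and macrophage markers of -0.6, with 0 of 5 above 0 and 0 of 5 at that p in each list. These lower values were not particular to CoCM. The fibroblast and macrophage medians were -0.5 and -0.49 in i.p. and -0.71 and -0.53 in i.v., again with 0 of 5 above 0. The endothelial medians were only -0.08 in i.p. and -0.09 in i.v. By CoCM animal, the endothelial sum and Prkacb were 157 and 11.7 TPM in animal 26, and 279 and 11.2 TPM in animal 27. They were 132 and 25.9 TPM in animal 34, and 229 and 24.1 TPM in animal 35. In animal 39 they were 193 and 25.6 TPM, and in animal 40 they were 286 and 22.3 TPM. The part of these cell types in the values of Prkacb, Ano1 and Slc12a2 was not tested.

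Between animals, the members fell into small groups that did not follow the order of the route. Correlations were taken over the 20 animals other than 36 to 39, on log2 CPM centred on the group means, for 45 pairs of members, and they are descriptions without a test, since the points share libraries and scaling. Prkacb and Pde4d were the closest members, with r = 0.92 and rho = 0.89 (r = 0.91 without the 2 animals farthest from the median). Many other genes were closer still. By r, Pde4d held rank 149 of 12777 genes for Prkacb, and Prkacb held rank 173 for Pde4d. Prkaca ran against both, with r = -0.75 to Prkacb and -0.83 to Pde4d (rho = -0.66 and -0.75). A kinase subunit and a phosphodiesterase were thus high or low in the same kidneys, and the other kinase subunit was high where they were low.

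The Prkacb values left a gap between 6 low animals and 14 others. The 6 were controls 1 and 18, CoCM animals 26 and 27, i.p. animal 41 and i.v. animal 28, so every group had at least 1. Within the 14 animals above the gap, r was 0.73 for Prkacb and Pde4d, -0.25 for Prkaca and Prkacb and -0.45 for Prkaca and Pde4d. Within the 6 it was 0.45, -0.32 and -0.83. The sets were drawn on Prkacb itself after its values were seen, which narrows its range within each set, so these values are a description only. CoCM held 2 of the 6, and these 2 gave its lowest Prkacb values.

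Adcy6 and Pde1a formed a second pair, with r = 0.87 and rho = 0.85 (r = 0.78 without the 2 farthest animals). Pde1a held rank 87 of 12777 genes for Adcy6, and Adcy6 held rank 10 for Pde1a. Avpr2 correlated with both, with r = 0.66 to Adcy6 and 0.67 to Pde1a. Another pair was Adcy3 with Ano1, with r = 0.72 and rho = 0.66 (r = 0.53 without the 2 farthest), and Adcy3 ran against Avpr2 with r = -0.61. Ano1 held rank 536 for Adcy3, and Adcy3 held rank 10 for Ano1. Cftr had its closest member in Slc12a2, with r = 0.52 and rho = 0.39, at rank 1047 of all genes. The genes most like the members outside the list were Trim2, Cds1 and Cyfip2 for Pde1a (r = 0.90 to 0.92), St6gal1, Tyw1 and Mybl1 for Cftr (r = 0.90 to 0.91), and Trps1, Ptprk and Gcnt1 for Slc12a2 (r = 0.81 to 0.82).

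**Figure D4:**
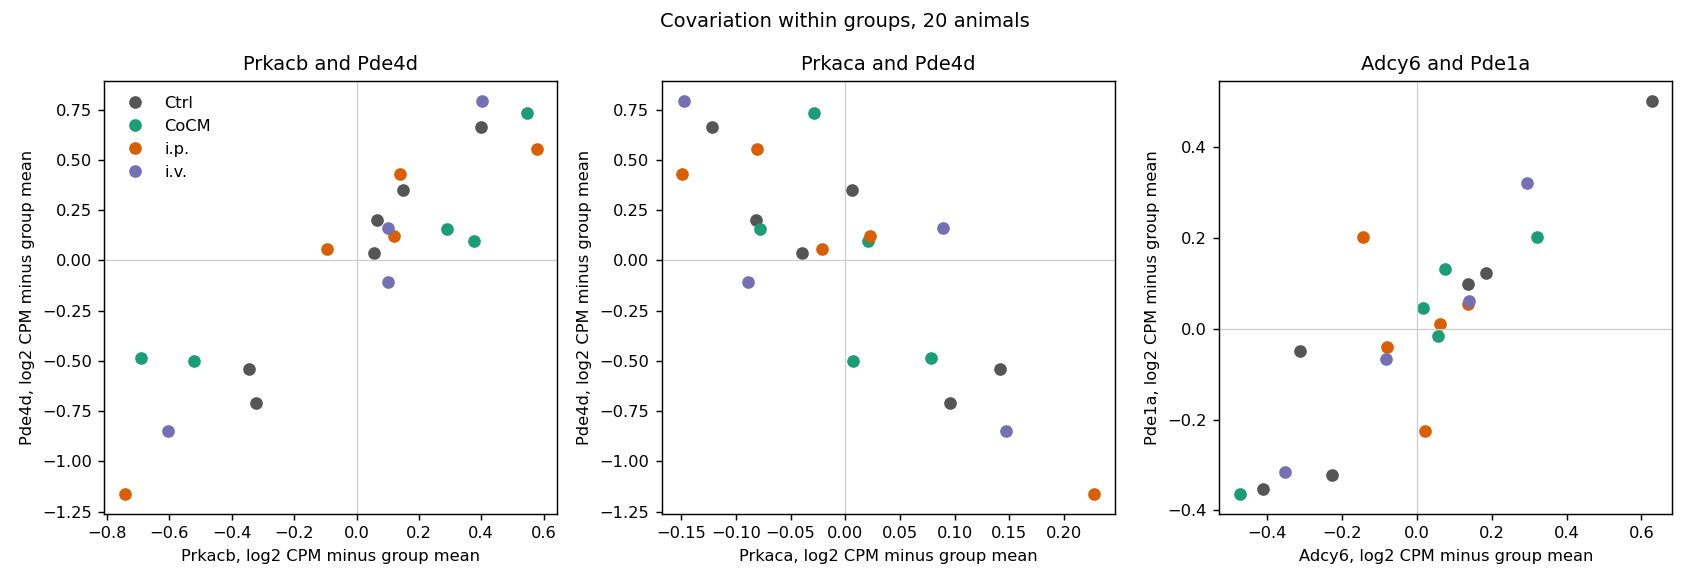
Log2 CPM minus the group mean for 3 pairs of members in 20 animals (x and y axes), coloured by group. Prkacb and Pde4d lie along a rising line (r = 0.92), Prkaca and Pde4d along a falling one (r = -0.83), and Adcy6 and Pde1a along a rising one (r = 0.87).

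The remaining parts of the pathway were taken as 6 lists with 122 genes, of which 117 were in the files and 111 were tested. None of the 111 passed edgeR's adjusted threshold in any comparison. At an unadjusted p under 0.05, 11 were lower and 0 higher in CoCM, which is 9.91% of the list against 11.9% of all genes. By direction, 5.96% of all genes were lower and 5.96% higher. In i.p. there were 0 (background 1.77%), and in i.v. 6 were higher and 0 lower (5.41% against 5.78%, with 4.44% of all genes higher). Between the routes 1 was higher and 4 lower in i.p. (4.5% against 2.14%, with 1.46% of all genes lower). Without animals 36 to 39 the counts were 20 lower and 1 higher in CoCM, where 9.69% of all genes were lower and 7.22% higher (16.9% together). They were 0 in i.p. (1.39% of all genes), and 4 higher and 0 lower in i.v. (1.23%, with 0.753% higher). Between the routes they were 5 lower and 0 higher (1.13%, with 0.683% lower). The 4 of i.v. were Nr4a1, Nr4a2, Nr4a3 and Sik1, and the 5 between the routes were these and Per1.

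At a p where 5.96% of all genes were lower, the 11 lower genes of CoCM came from 4 of the 6 lists. Among them were 4 of the 15 G protein subunits and other cyclases, and 3 of the list had a log2 fold change above 0 (median -0.21, all genes 0.01). They were Gnaq, Gnb1, Gnai3 and Adcy10, the last a soluble cyclase that senses bicarbonate. Of the 14 other phosphodiesterases, Pde3a (-0.79), Pde4b (-0.59) and Pde11a (-0.64) were among the 11, and the median log2 fold change was -0.34 with 1 of 14 above 0. Akap6 and Akap12, which anchor PKA, were 2 of 18 in their list (median -0.16). No receptor (0 of 19) and no CREB factor or target gene (0 of 17) passed this p. Ion and water transport genes had a median of 0.16, with Oxsr1 and Slc4a4 as 2 of 28 lower.

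Oxsr1, a kinase that activates NKCC1, had the smallest p of the lists in CoCM. Oxsr1 ran from 31.5 through a median of 37 to 46.5 TPM in Ctrl and from 26.1 through 30.9 to 33.4 TPM in CoCM, and 4 of 6 CoCM animals were below all controls. Its log2 fold change was -0.21 ± 0.0673 (edgeR unadjusted p = 0.00496, adjusted p = 0.307, exact permutation p = 0.013). Gnaq, the alpha subunit that couples receptors to calcium release, was at 10.4 ± 2.18 TPM in CoCM and 17.3 ± 6.52 TPM in Ctrl (log2 fold change -0.6 ± 0.217, edgeR unadjusted p = 0.0106, adjusted p = 0.346, exact permutation p = 0.0281). On the higher side, Gcgr, the glucagon receptor, had 0.79 ± 0.445 and Fxyd2, a subunit of the sodium pump, 0.65 ± 0.394, with edgeR unadjusted p-values of 0.0879 and 0.113. Animal 39 was the highest of its group in both, at 43.9 TPM for Gcgr and 41700 TPM for Fxyd2, and without animals 36 to 39 the values were 0.35 and 0.26.

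In i.p. the 2 smallest p-values on the higher side belonged to Fxyd2 (log2 fold change 0.81 ± 0.395, edgeR adjusted p = 0.978) and Aqp2, the water channel moved by vasopressin. Aqp2 was at 524 ± 169 TPM in i.p. and 404 ± 147 TPM in Ctrl (0.5 ± 0.244, edgeR unadjusted p = 0.0535, adjusted p = 0.978, exact permutation p = 0.167). Fxyd2 was at 51700 TPM in animal 38, and without animals 36 to 39 the values were 0.31 for Fxyd2 and 0.36 for Aqp2. Akap12 (-0.43 ± 0.242) and Gnai3 (-0.1 ± 0.0664) stood on the lower side, at edgeR unadjusted p-values of 0.0861 and 0.141.

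In i.v. the smallest p belonged to Nr4a1, an immediate early gene induced by cAMP and by other stimuli. It ran from 25.7 through a median of 30.2 to 54.5 TPM in Ctrl and from 41.2 through 85.0 to 142 TPM in i.v., where 4 of 6 animals were above all controls. The log2 fold change was 1.38 ± 0.43 (edgeR unadjusted p = 0.00401, adjusted p = 0.673, exact permutation p = 0.00433). Nr4a2 (0.46 ± 0.221) and Sik1 (0.62 ± 0.292), further CREB targets, were also higher at an unadjusted p under 0.05, as were the transport genes Clcn2 (0.66 ± 0.232), Aqp1 (0.99 ± 0.457) and Nherf1 (0.66 ± 0.319). Clcn2, a chloride channel, was at 13.6 ± 3.79 TPM in i.v. and 9.53 ± 2.43 TPM in Ctrl, and its 2 highest animals, with 17.3 and 18.9 TPM, were 36 and 37. Without animals 36 to 39, Clcn2 was at 0.23, Aqp1 at 0.05 and Nherf1 at -0.05, while Nr4a1 was at 1.44, Nr4a2 at 0.41 and Sik1 at 0.46. Adora2b, an adenosine receptor that raises cAMP, had -0.41 ± 0.222, and Gnb1 had -0.18 ± 0.112, with -0.18 and -0.02 without the 4 animals. Between the routes, Nr4a1 (-1.18 ± 0.428), Nr4a2 (-0.57 ± 0.222), Per1 (-0.79 ± 0.346) and Sik1 (-0.64 ± 0.293) stood lower in i.p. at an unadjusted p under 0.05, each with an edgeR adjusted p = 1, where 1.46% of all genes were lower. Aqp2 was the 1 gene of the lists on the higher side (0.53 ± 0.244, edgeR adjusted p = 1; 0.689% of all genes), at 0.46 without animals 36 to 39.

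**Figure D5:**
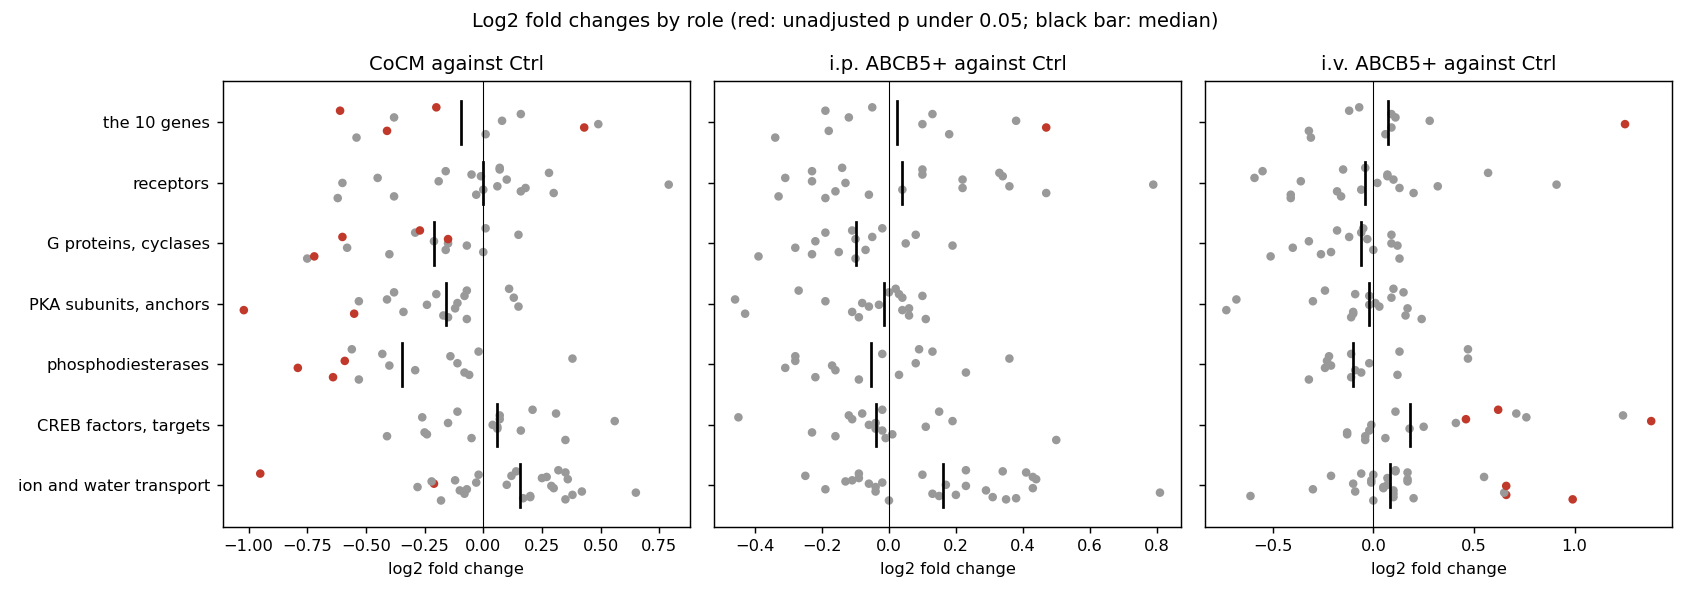
Log2 fold changes (x axis, edgeR) of the 10 genes and of the 6 further lists by role (y axis) in the 3 comparisons with Ctrl, with red for an unadjusted p under 0.05 and black bars for medians. In CoCM the medians of cyclases, PKA partners and phosphodiesterases were -0.21, -0.16 and -0.34, and the red points of i.v. lie to the right of 0.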

How the data were processed

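Total RNA of whole left kidney was sequenced on the BGISEQ-500. The processing notes name Trim Galore 0.6.4, kallisto 0.4.6 and the build rn6, whereas the methods of the study cite a human transcript package (hg19) and DESeq2. The authors deposited, per animal, estimated counts (not normalized) and TPM values summing to 964191 to 976409. Symbols came from the RefSeq table of GRCr8 (17179 of 17334 identifiers). Members and lists were chosen with earlier results of these data known. Counts were rounded, filtered by edgeR's filterByExpr, scaled by TMM and fitted in 1 edgeR 4.0.16 model (R 4.3.3) with a mean per group, and scripts were tested on simulated data. Single members were also tested by exact permutation of log2 CPM (prior count 2). Members were all named, with, from the pathway lists, the 2 per direction with the smallest p against Ctrl at a mean of at least 1 TPM, and other list genes under an unadjusted 0.05 were named after their values were seen. Alternatives were DESeq2 1.42.0, limma 3.58.1 (voom, or log2 TPM with pseudocounts of 1 or 0.1), median-ratio scaling, other filters, fits of the compared groups alone, each animal left out and, chosen after seeing the data, animals 36 to 39 left out. P-values measure the spread between 6 animals a group.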

Additional observations from a re-analysis of the deposited data

Results flagged for a closer look

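In 3 of the 40 combinations of a member and a group of 6 animals, 1 animal lay apart from the other 5 by more than Dixon's critical share of the range, and chance would flag about 2.0. Pde1a in CoCM was at 23.9 TPM in animal 39 and at 8.16 to 12.6 TPM in the other 5. Pde1a in i.p. was at 26.5 TPM in animal 38 and at 12.9 to 16.5 TPM in the other 5. Both animals are among the 4 with low injured tubule markers (383 to 666 TPM), and the part of that difference in Pde1a was not tested. Cftr in Ctrl was at 0.696 TPM in animal 24 and at 0.287 to 0.393 TPM in the other 5, from at most 41 estimated counts.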

How the results depend on the processing

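No member passed an adjusted threshold under any alternative, and of 356 alternative values 336 kept their direction and 20 changed sign. Genes called for CoCM were 81 by DESeq2, 179 by voom with quality weights, and 0 with only the compared groups fitted, on either log2 TPM scale or without animals 36 to 39. DESeq2 called 1 gene for i.v., 1 for i.p. against i.v. and 10 over the 4 groups, where voom called 1. Members under an unadjusted 0.05 numbered 0 in i.p. with only the compared groups, on both TPM scales and without animals 36 to 39, and 2 by voom. In i.v. they numbered 0 with at least 10 counts in every sample (a filter that removed Cftr), by voom, on both TPM scales and without animals 36 to 39. Between the routes they numbered 0 under those same settings and with only the compared groups, and over the 4 groups 2 by voom and 1 without animals 36 to 39. Median-ratio scaling and no filter moved no count. Sign changes in CoCM were Adcy6 (-0.01 with at least 10 counts, -0.08 on both TPM scales, -0.11 without animals 36 to 39) and Pde1a (-0.06 by voom, -0.08 and -0.09 on TPM, -0.22 without the 4). In i.v. they were Adcy6 (-0.0022 and -0.0018 on TPM), Pde4d (-0.001), Prkaca (-0.01 by voom and without the 4) and Cftr (-0.17 without the 4), and in i.p. Cftr (-0.05). Between the routes they were Adcy6 (-0.06 by voom, -0.01 without the 4), Cftr (0.29 and 0.41) and Slc12a2 (-0.01 by voom). The causes were not tested.

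With each animal left out, 42 of 960 member values changed sign. Called genes ranged from 0 to 31 in CoCM (31 without control 23), from 0 to 0 in each cell comparison and from 0 to 1 over the 4 groups. Members under 0.05 ranged from 1 to 4 in CoCM, 0 to 1 in i.p., 0 to 1 in i.v., 0 to 2 between the routes and 0 to 2 over the 4 groups. Ranges that crossed 0 were, in CoCM, Adcy6 (-0.1 to 0.14) and Pde1a (-0.21 to 0.19). In i.p. they were Pde4d (-0.25 to 0.03), Cftr (-0.26 to 0.33) and Slc12a2 (-0.1 to 0.02), and in i.v. Avpr2 (-0.02 to 0.2), Adcy6 (-0.04 to 0.19) and Pde4d (-0.1 to 0.25). Between the routes they were Adcy3 (-0.17 to 0.09), Prkaca (-0.03 to 0.08), Prkacb (-0.22 to 0.05), Pde1a (-0.14 to 0.21) and Slc12a2 (-0.01 to 0.06). No paired analysis was possible because the groups share no animal numbers. Cftr rested on 7 to 136 counts per library.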
